A study of Mus musculus with 12 samples.

Results

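The genes described here encode the subunits of condensin and the SMC pair of the SMC5/6 complex in NU1, a spontaneously immortalised line of mouse urothelial cells. They were chosen by their names in the count table, as the subunits of the 2 condensins and the SMC pair of SMC5/6: Smc2 and Smc4, Ncapd2, Ncapg and Ncaph, Ncapd3, Ncapg2 and Ncaph2, and Smc5 and Smc6. These are 10 of the 23337 gene symbols in the table, and all 10 were among the 12406 symbols with enough counts to be tested. RNA was sequenced in 12 libraries, 3 in each of 4 groups, with 1 library of each group from experiments 5, 7 and 9. Proliferating cells carried the hairpin labelled shNT (genotype label WT, the control) or the hairpin labelled sh4 (genotype label Stag2-KD). Quiescent cells, labelled day 7, carried the same hairpins and had been grown to confluence and then kept in complete medium with 1 µM rosiglitazone, an agonist of the nuclear receptor PPAR gamma, and 0.5 µM erlotinib, an inhibitor of the EGF receptor kinase. All 12 libraries came from 1 cell line, the knockdown used 1 hairpin, and the effects of confluence, of the 2 drugs and of time in culture cannot be told apart. The study's title names STAG2, a subunit of cohesin, and the DREAM complex, which represses cell-cycle genes, in the maintenance of quiescence.

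Condensin is a ring-shaped motor that uses ATP to extrude loops of DNA and so compacts chromosomes for mitosis. Vertebrates have a pair of condensins that share the ATPases Smc2 and Smc4 and differ in the other subunits: condensin I holds Ncapd2, Ncapg and Ncaph and reaches chromosomes after the nuclear envelope breaks down, while condensin II holds Ncapd3, Ncapg2 and Ncaph2 and is nuclear throughout the cell cycle. The SMC5/6 complex is built around Smc5 and Smc6 and acts in homologous recombination, at stalled replication forks and against some extrachromosomal DNA. Cohesin, of which Stag2 is a subunit, is the third complex of the same family.

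Library totals ran from 14524429 to 21987539 counts, and levels are given as CPM, the usual share of a library's counts, with totals adjusted by the TMM method. Stag2 itself was at 139, 145 and 113 CPM in proliferating control cells of experiments 5, 7 and 9 and at 33.3, 24.9 and 24.6 CPM with sh4, and in quiescent cells at 128, 126 and 107 CPM against 9.43, 15.3 and 11.7 CPM, so every library carried the Stag2 level its label implies. Of 15 urothelial markers, the keratins Krt7, Krt8, Krt18 and Krt19, Cdh1 and Epcam were abundant (group means of 456 to 8909 CPM), and the uroplakins Upk1a, Upk1b, Upk2 and Upk3a stayed under 3 CPM in every group mean. Of the basal markers, Trp63 was at 0 counts in all 12 libraries, while Krt5 had 50 to 115 counts and Krt14 had 83 to 189 counts in proliferating libraries. Both keratins fell in control quiescence, with log2 fold changes of -2.03 for Krt5 (adjusted p = 0.013 by edgeR) and -4.16 for Krt14 (adjusted p = 0.000601 by edgeR), and the urothelial transcription factor Gata3 rose by 1.47 on the log2 scale (adjusted p = 0.0263 by edgeR). Krt5, Krt14 and Gata3 were the only calls among the 12 urothelial markers tested (2 lower and 1 higher), where 20% of all tested genes were called. Of the 12, 5 had negative and 7 had positive log2 fold changes. The uncalled ones ran from -0.59 for Krt7 to 1.15 for Upk1a. The called markers thus moved between the states in which the genes below are compared, and their part in those results was not tested. The 12 markers of fibroblasts, smooth muscle, endothelium and immune cells summed to 2.5 to 10.8 CPM per library with ranges that overlapped between groups, and Col1a2 was at 0 in every library. Nothing in the labels says that experiments were separate thaws or cultures, so p-values measure the spread between these libraries, which may be partly technical.

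Promoter windows from RefSeq (GRCm38.p6, 250 bases before to 50 after a transcript start, on the gene's strand) were found for 9 of the 10 genes. Not matched: Smc4. Each window was searched on both strands for TTTGAA, the core of the cell cycle genes homology region (CHR) that the DREAM complex binds, for the E2F form TTCCCGC, its variants written TTGGCGC or else TTCGCGC, and for CCAAT, the box bound by NF-Y. The windows of Ncapg (chr5:45669675-45669974, plus strand), Ncapd2 (chr6:125191537-125191836, minus strand) and Ncapg2 (chr12:116405186-116405485, plus strand) are shown because they held both a CHR core and an E2F form, and that of Ncaph2 (chr15:89355469-89355768, plus strand) because it held none of these motifs. Capitals mark the matches on either strand, so a core on the other strand reads TTCAAA, an E2F form there reads GCGGGAA or, for its first variant, GCGCCAA, and a CCAAT box there reads ATTGG.
Ncapg: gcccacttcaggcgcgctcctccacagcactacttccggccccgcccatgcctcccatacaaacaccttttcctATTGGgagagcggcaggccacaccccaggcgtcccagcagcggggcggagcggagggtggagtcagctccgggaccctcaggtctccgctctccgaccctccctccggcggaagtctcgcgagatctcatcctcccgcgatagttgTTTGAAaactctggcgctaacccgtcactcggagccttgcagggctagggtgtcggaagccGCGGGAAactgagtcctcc
Ncapd2: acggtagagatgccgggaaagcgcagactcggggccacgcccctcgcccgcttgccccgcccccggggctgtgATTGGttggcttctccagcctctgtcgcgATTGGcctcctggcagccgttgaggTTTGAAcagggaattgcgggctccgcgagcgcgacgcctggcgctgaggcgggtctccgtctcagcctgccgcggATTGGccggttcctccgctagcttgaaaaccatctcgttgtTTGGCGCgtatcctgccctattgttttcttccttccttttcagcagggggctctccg
Ncapg2: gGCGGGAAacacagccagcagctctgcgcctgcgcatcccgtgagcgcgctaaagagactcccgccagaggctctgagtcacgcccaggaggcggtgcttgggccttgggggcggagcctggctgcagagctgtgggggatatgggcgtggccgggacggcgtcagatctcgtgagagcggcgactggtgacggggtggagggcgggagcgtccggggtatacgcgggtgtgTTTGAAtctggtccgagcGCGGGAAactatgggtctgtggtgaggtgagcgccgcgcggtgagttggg
Ncaph2: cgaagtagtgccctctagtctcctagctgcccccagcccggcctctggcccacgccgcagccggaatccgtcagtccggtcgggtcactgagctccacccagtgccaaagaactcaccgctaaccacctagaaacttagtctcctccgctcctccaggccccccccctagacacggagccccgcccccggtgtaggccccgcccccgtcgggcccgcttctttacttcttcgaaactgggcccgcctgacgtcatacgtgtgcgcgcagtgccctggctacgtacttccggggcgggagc

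At the first listed start, the CHR core was in 5 of the 9 windows (Smc2, Ncapd2, Ncapg, Ncapg2 and Smc6), against 17.9% of all 32851 windows in the RefSeq table. An E2F form was in 5 of 9 (Ncapd2, Ncapg, Ncaph, Ncapd3 and Ncapg2), against 8.1% of all windows. Both together were in 3 of 9, against 0.8%. The CCAAT box was in 3 of 9 (Smc2, Ncapd2 and Ncapg), near the 37.4% of all windows that hold one. In Ncapg the CHR core began 30 bases before the start and the E2F form 32 bases after it, and in Ncapg2 the core began 18 bases before the start, with an E2F form at the start itself. In Ncapd2 the core lay farther out, 123 bases before the start, between CCAAT boxes at 148 and 48 bases before it, with an E2F form 7 bases before the start. The window of Smc5 (chr19:23272550-23272849, minus strand) also held no match, and it lies inside the span that GENCODE M21 gives for that gene. A match is a stretch of letters and not evidence of binding. The reverse of CCAAT can share letters with TTGGCGC, and no matches overlapped in these windows.

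**Figure D1:**
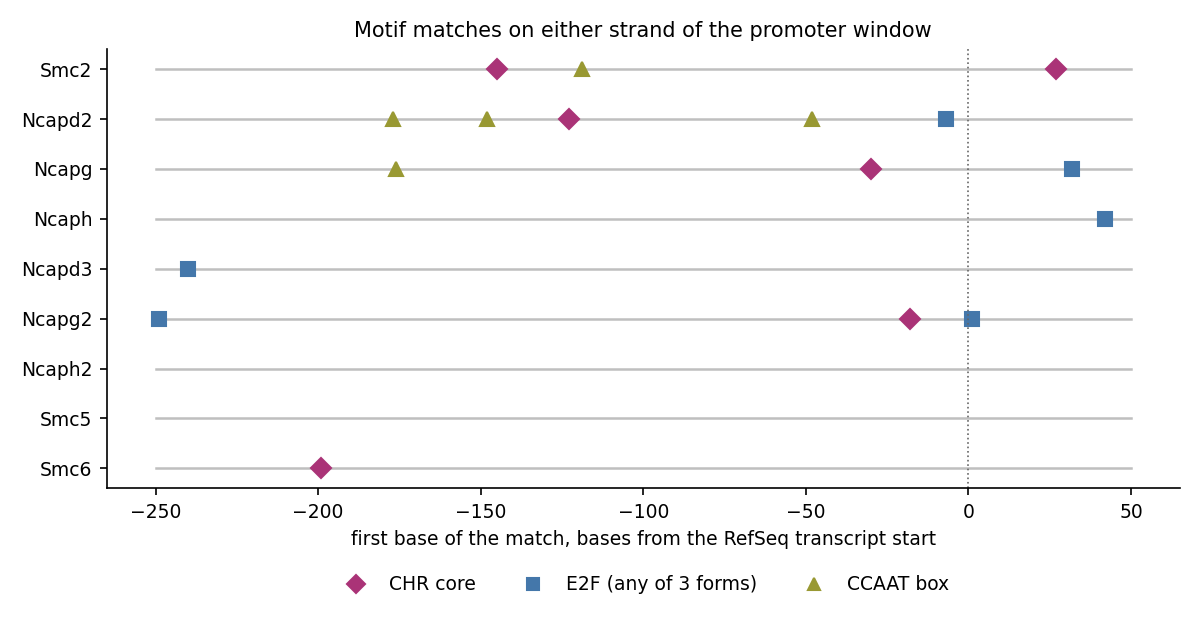
Motif matches in the RefSeq promoter windows of 9 condensin and SMC5/6 genes, at the first listed start; the x axis is the position of the first base of a match relative to the transcript start, in bases, grey lines are the windows, and colours and shapes are the motifs. Ncapd2, Ncapg and Ncapg2 carry both the CHR core and an E2F form, and the Ncaph2 and Smc5 lines are empty.

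Entry into quiescence was compared first in control cells. All 10 genes were lower in quiescent than in proliferating control cells, and in all 10 the 3 quiescent libraries lay below the 3 proliferating ones. The falls covered a wide range, from 32.2-fold for Ncapg to 1.49-fold for Ncaph2. The condensin I subunits, the shared SMC pair and Ncapg2 fell by more than 4-fold each, whereas Ncapd3, Smc5, Smc6 and Ncaph2 kept between 42.3% and 66.9% of their proliferating level. In bulk RNA, fewer cells that express a gene and less RNA per cell cannot be told apart.

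Smc2 (chr4:52439243-52488260, plus strand, GRCm38), an ATPase common to both condensins, was at 65.4, 83.2 and 67.5 CPM in proliferating control cells of experiments 5, 7 and 9 and at 13.8, 13.0 and 14.0 CPM in quiescent ones. The quiescent libraries were nearly level with each other, and the log2 fold change was -2.40 (adjusted p = 5.7e-05 by edgeR, SE 0.21). Smc4 (chr3:69004738-69034623, plus strand), its partner ATPase, was at 87.4, 141 and 153 CPM in proliferating control cells and at 13.6, 19.5 and 26.6 CPM in quiescent ones, with a log2 fold change of -2.68 (adjusted p = 0.000493 by edgeR, SE 0.35). Smc4 was more variable than Smc2, and the experiment 5 library was the lowest of both states.

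Among the condensin I subunits, Ncapd2 (chr6:125168007-125191701, minus strand), the HEAT-repeat subunit that helps bring condensin I to chromosomes, was at 89.8, 101 and 117 CPM in proliferating control cells and at 11.5, 12.1 and 14.8 CPM in quiescent ones. Its log2 fold change was -3.00 (adjusted p = 0.000104 by edgeR, SE 0.30). Ncapg (chr5:45669919-45700546, plus strand), the second HEAT-repeat subunit, had the largest fall of the 10 genes. It was at 30.9, 41.4 and 41.3 CPM in proliferating control cells and at 0, 1.04 and 2.39 CPM in quiescent ones, which are 0, 17 and 40 counts. The library at 0 counts allows up to 3 counts, or 0.207 CPM, so this gene was at the edge of detection there, and its log2 fold change of -5.01 carried a wide error (adjusted p = 0.00134 by edgeR, SE 0.77). Without the quiescent control library of experiment 9 it was -6.11. Ncaph (chr2:127103809-127133954, minus strand), the kleisin that closes the condensin I ring, was at 48.5, 51.1 and 53.2 CPM in proliferating control cells and at 10.7, 10.5 and 11.2 CPM in quiescent ones. The replicates were close to each other in both states, with a log2 fold change of -2.24 (adjusted p = 9.53e-05 by edgeR, SE 0.22).

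The condensin II subunits did not move by a common amount. Ncapg2 (chr12:116405402-116463731, plus strand), the condensin II counterpart of Ncapg, was at 49.6, 56.9 and 63.1 CPM in proliferating control cells and at 3.80, 5.26 and 5.19 CPM in quiescent ones, a log2 fold change of -3.57 (adjusted p = 0.000135 by edgeR, SE 0.37). Ncapd3 (chr9:27030175-27095315, plus strand), the counterpart of Ncapd2, was at 24.9, 35.3 and 32.8 CPM and then at 13.2, 14.1 and 12.1 CPM, a log2 fold change of -1.24 (adjusted p = 0.000832 by edgeR, SE 0.18). The groups were apart but the fall was 2.37-fold, against 11.9-fold for Ncapg2. Ncaph2 (chr15:89355719-89372826, plus strand), the kleisin of condensin II, was at 203, 213 and 264 CPM in proliferating control cells and at 139, 148 and 169 CPM in quiescent ones. This was the smallest fall of the 10, with a log2 fold change of -0.58 (adjusted p = 0.0217 by edgeR, SE 0.15), and the call was lost without the proliferating control library of experiment 9 (log2 fold change -0.46) and without the quiescent control library of experiment 5 (-0.51) or 7 (-0.55). It was also lost in a fit to only the 6 libraries compared (log2 fold change -0.58).

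Exons of Ncaph2 share 829 bases (19.7% of its exon length) with Sco2 and 535 bases (12.7%) with Tymp on the opposite strand, and those of Ncapg share 944 bases (13.4%) with Lcorl on the opposite strand. Whether strand was used in counting is not given in the sources used here, so reads of these pairs may not be fully separate. Exons of Ncapd2 share 237 bases (3.78%) with Scarna10 and 235 bases (3.75%) with Gm28967 on the same strand. Strand cannot separate such reads, and the levels of Scarna10 and Gm28967 were not examined. Sco2 was at 15.4 ± 6.06 CPM (SD, n = 3) in proliferating and 11.1 ± 2.47 CPM (SD, n = 3) in quiescent control cells, and Lcorl was at 16.7 ± 1.33 CPM and 13.8 ± 0.215 CPM (SD, n = 3 each). The level of Lcorl was thus above that of Ncapg in every quiescent control library, and the level of Sco2 far below that of Ncaph2.

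The SMC5/6 pair moved little and together. Smc5 (chr19:23206451-23273897, minus strand), which pairs with Smc6 to form the arms of that complex, was at 68.0, 80.5 and 82.2 CPM in proliferating control cells and at 48.9, 44.1 and 46.2 CPM in quiescent ones, a log2 fold change of -0.73 (adjusted p = 0.00792 by edgeR, SE 0.16). Smc6 (chr12:11265886-11319785, plus strand) was at 87.6, 123 and 120 CPM and then at 58.2, 75.0 and 60.0 CPM, a log2 fold change of -0.78 (adjusted p = 0.0168 by edgeR, SE 0.19). The call of Smc6 was lost without the quiescent control library of experiment 5 or 9, or the proliferating one of experiment 7 or 9. Over all omissions of 1 control library, with or without the call, its log2 fold change ran from -0.92 to -0.69.

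**Figure D2:**
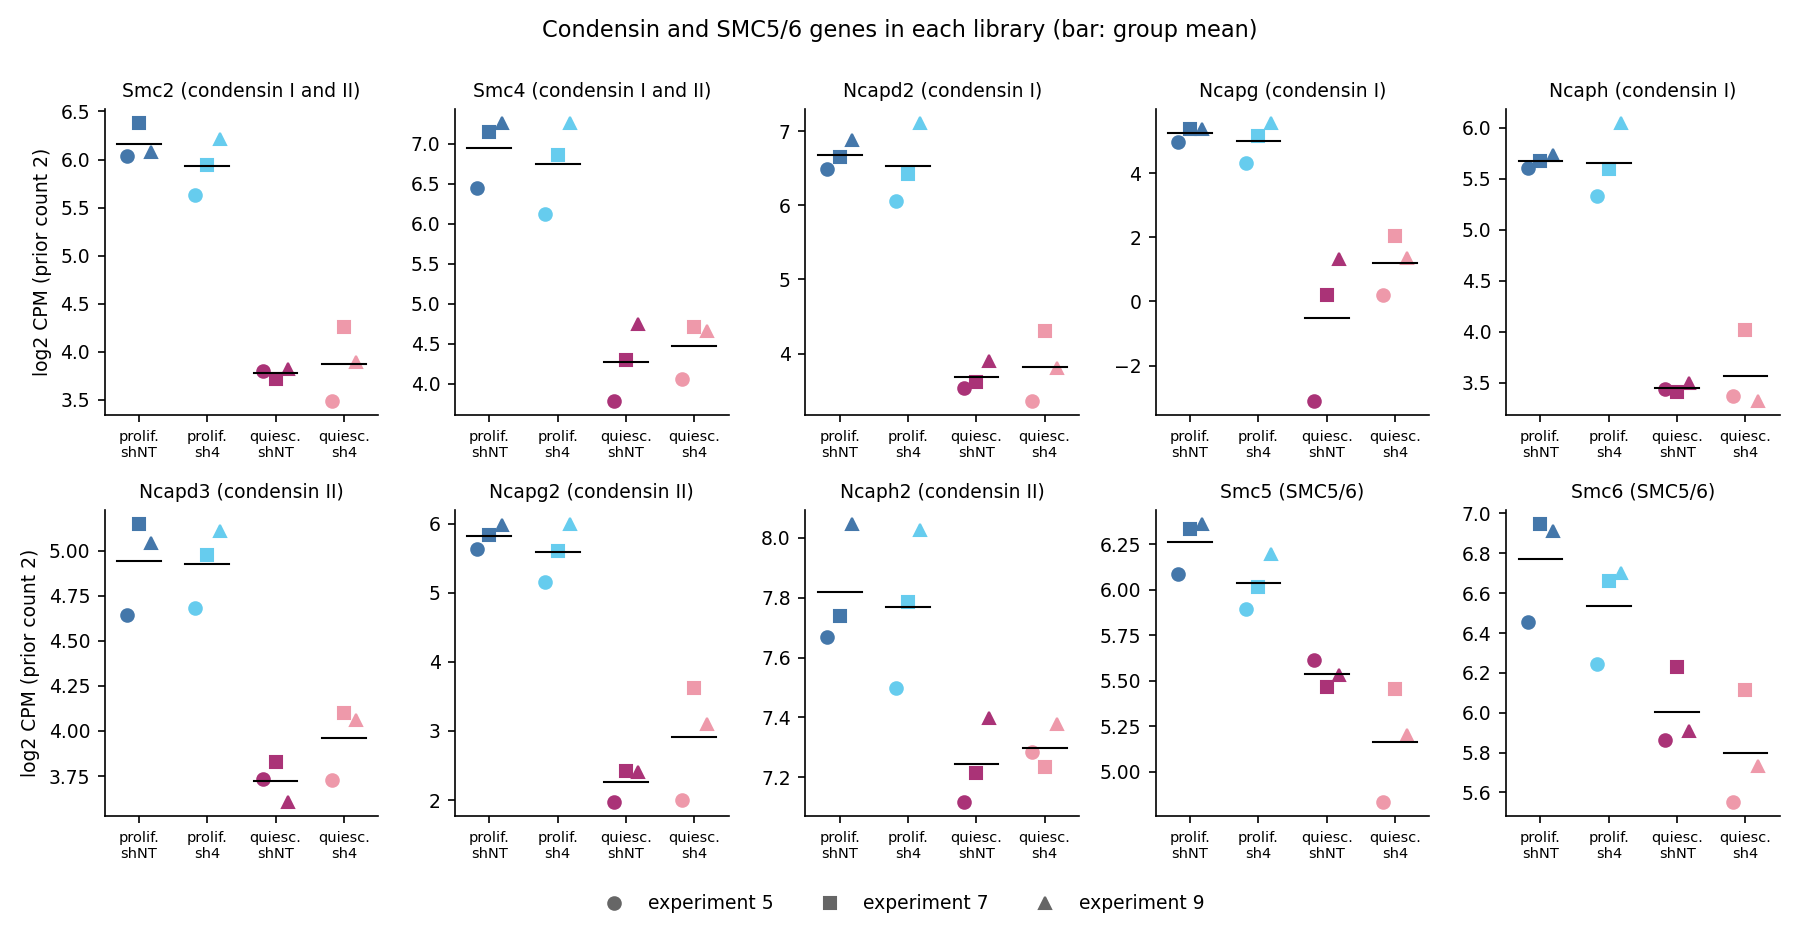
Log2 CPM (prior count 2) of the 10 genes in each of the 12 libraries; each panel has its own y axis, x positions and colours are the 4 groups, shapes are the experiments and bars are group means. In every panel the 6 quiescent libraries lie below the 6 proliferating ones, and the lowest Ncapg point is the quiescent control library with 0 counts.

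In Stag2 knockdown cells the same comparison again had all 10 genes lower in quiescence, with no overlap between the 3 proliferating and the 3 quiescent libraries of any. The log2 fold changes were -2.05 for Smc2, -2.32 for Smc4, -2.74 for Ncapd2, -3.79 for Ncapg and -2.09 for Ncaph. For condensin II they were -0.97 for Ncapd3, -2.59 for Ncapg2 and -0.49 for Ncaph2, and for the SMC5/6 pair -0.86 for Smc5 and -0.73 for Smc6. As in control cells, the calls of Ncaph2 and Smc6 were the ones lost when 1 library was left out, but that of Ncaph2 was lost under more settings here. It passed narrowly (edgeR adjusted p = 0.0464) and, unlike in control cells, missed the threshold with median-of-ratios scaling (log2 fold change -0.48), with library totals alone (-0.44), with no filter on low counts (-0.50) and with a filter at a mean of 50 counts (-0.49). As in control cells, it missed it in a fit to the 6 libraries compared (-0.48). In these cells Ncaph2 also missed it without any 1 library other than the proliferating one of experiment 5 (-0.61 to -0.35 over all omissions). Smc6 missed it without either library of experiment 9, the proliferating one of experiment 7 or the quiescent one of experiment 5 (-0.90 to -0.62, again over all omissions).

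In control cells, 11.7% of all 12406 tested genes were called lower in quiescence, and 18.5% with a replicate block, which adds a term for experiment to the fit. In knockdown cells the shares were 10.8% and 17.2%. Against these shares, 10 of 10 genes were called lower in each state under both fits. The DESeq2 Wald test also called 10 of 10 in each state, and it called 14.5% of all tested genes lower in control and 13.2% in knockdown cells. Groups of 3 libraries that did not overlap, with the quiescent ones lower, were found for 18.5% of all tested genes in control cells and 19.1% in knockdown cells. The median log2 fold change of the 10 genes was -2.32 in control and -2.07 in knockdown cells, and over all tested genes it was 0.0047 and 0.0045. With all 4 libraries of experiment 7 left out, 6 of the 10 were called in each state, where 3.24% of all tested genes were called lower in control and 3.72% in knockdown cells. The calls lost included that of Ncapg, the gene with the largest fall, whose log2 fold change was then -4.87 in control (adjusted p = 0.0615 by edgeR) and -4.27 in knockdown cells (adjusted p = 0.0719 by edgeR). Ncaph2 and Smc6 were lost in both, Smc5 in control cells (log2 fold change -0.66) and Ncapd3 in knockdown cells (-1.02). Without experiment 9, 7 of 10 were called in control cells, where 5.03% of all tested genes were called lower, the lost ones being Ncaph2, Smc5 and Smc6. In knockdown cells the count was then 5, against 3.83% of all tested genes, with Ncapg (-3.49, adjusted p = 0.0531 by edgeR) and Ncapd3 (-0.92) also lost. Without experiment 5, 9 were called in each state, all but Ncaph2. The shares of all tested genes called lower were then 9.4% in control and 8.3% in knockdown cells. The cycling marker Mki67 moved with these genes: it was at 185, 225 and 190 CPM in proliferating control cells and at 0.552, 6.24 and 7.93 CPM in quiescent ones. Its part in their falls was not tested.

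**Figure D3:**
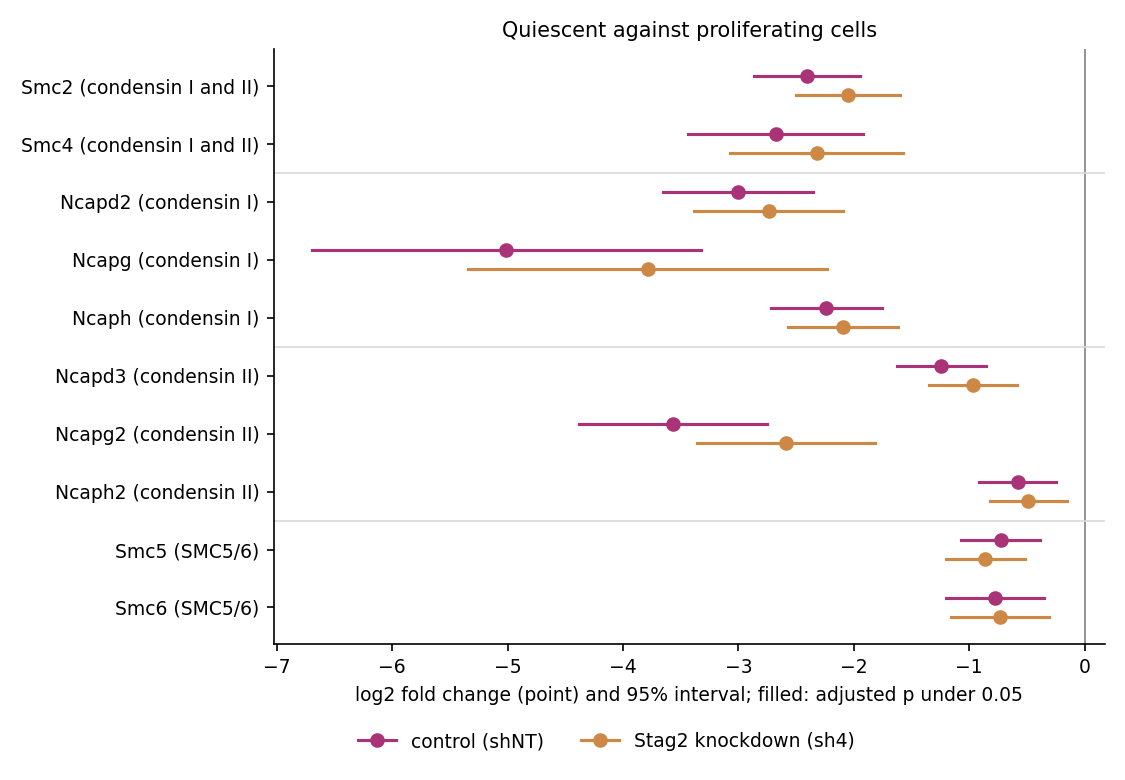
Log2 fold changes from proliferating to quiescent cells with 95% intervals from the edgeR fit, for control cells (purple) and Stag2 knockdown cells (orange); horizontal lines divide the shared SMC pair, condensin I, condensin II and SMC5/6. All 20 points lie left of 0, from -5.01 for Ncapg in control cells to -0.49 for Ncaph2 in knockdown cells.

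Ratios of 2 genes within a library need no scaling between libraries, and they were used to set condensin I subunits against their condensin II counterparts and Smc2 against Smc5. All 4 ratios were lower in quiescence in each of the 6 pairs of libraries that share a hairpin and an experiment. This gives an exact two-sided permutation p of 0.03125 for each ratio, the smallest that 64 arrangements allow, and 0.03125 after Benjamini-Hochberg adjustment over the 4 ratios. This test treats the 6 pairs as independent, although they come from 3 experiments with 1 pair of each hairpin. When both pairs of an experiment change sign together, the exact permutation p is 0.25 for each ratio, the smallest that 8 arrangements allow, so 3 experiments cannot reach 0.05. As log2 of counts with 0.5 added, Ncapd2 over Ncapd3 went from 1.67 ± 0.258 in proliferating to -0.09 ± 0.274 in quiescent libraries (SD, n = 6 each), a mean paired difference of -1.76 ± 0.363 (SD, n = 6). In counts, Ncapd2 thus exceeded Ncapd3 by 2.60 to 4.01 times in proliferating libraries, and in quiescent ones the ratio ran from 0.769 to 1.23. Ncaph over Ncaph2 differed by -1.64 ± 0.349 (SD, n = 6) and Smc2 over Smc5 by -1.43 ± 0.304 (SD, n = 6).

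Ncapg over Ncapg2 differed by -2.0 ± 2.06 (SD, n = 6), with single pairs from -6.11 to -0.50. The most extreme pair holds the quiescent control library with 0 counts of Ncapg, and without experiment 5 the mean difference was -1.21. The Smc2 over Smc5 ratio also separated the quiescent groups: it was -1.82, -1.75 and -1.73 in control cells of experiments 5, 7 and 9 and -1.36, -1.21 and -1.32 in knockdown cells. The knockdown libraries were higher by 0.47, 0.55 and 0.41 in the 3 experiments. In proliferating cells the same differences were -0.20, -0.12 and 0.30 and the groups overlapped. The quiescent groups overlapped in the ratios of Ncapd2 over Ncapd3, Ncapg over Ncapg2 and Ncaph over Ncaph2. Among single genes, 19.1% of all those tested had quiescent hairpin groups that did not overlap, and Smc5 was 1 of them. The split of Smc2 over Smc5 was noticed after the values were seen and is given without a test.

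**Figure D4:**
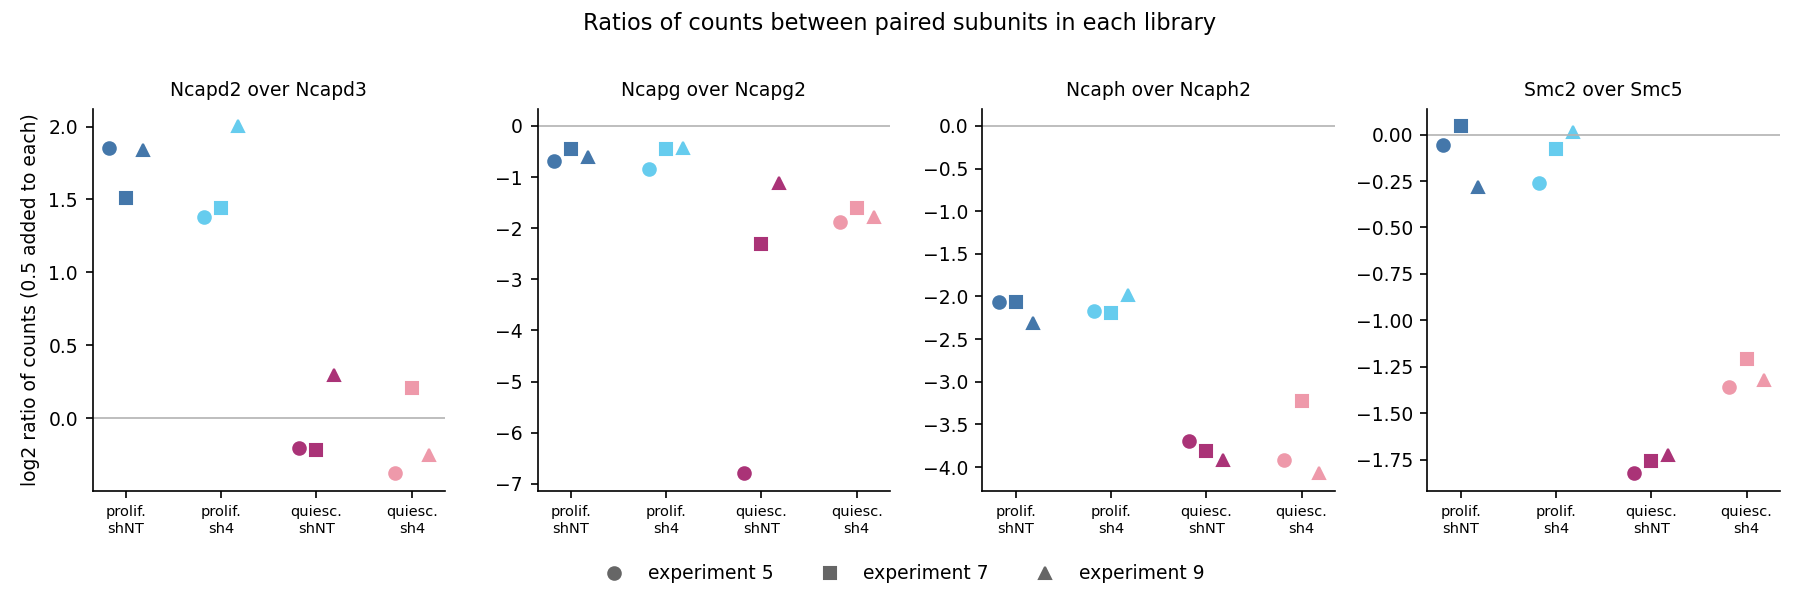
Log2 ratio of the counts of 2 genes within each library (0.5 added to each count), by group (x positions and colours) and experiment (shapes); each panel has its own y axis, and the grey line is a ratio of 1. In every panel the 6 quiescent libraries lie below the 6 proliferating ones, and the point at -6.79 for Ncapg over Ncapg2 is the library with 0 counts of Ncapg.

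Levels were compared between genes as CPM per kilobase of exon, with the union of GENCODE M21 exons as the length. Ncaph2 was the highest of the 10 in every group, at 54.1 ± 7.79 CPM per kb (SD, n = 3) in proliferating and 36.2 ± 3.64 in quiescent control cells, and no library of another gene reached its range. In proliferating control cells it was followed by Smc4 (24.4), Ncapd2 (16.4), Smc2 (13.1), Ncaph (11.8), Smc5 (11.3), Smc6 (8.83), Ncapg2 (5.69), Ncapg (5.36) and Ncapd3 (3.93). Of these neighbours, the ranges of Smc4 and Ncapd2, Ncapd2 and Smc2, Smc2 and Ncaph, Ncaph and Smc5, Ncapg2 and Ncapg, and Ncapg and Ncapd3 overlapped, so their order is not beyond the spread of 3 libraries. In quiescent control cells the SMC5/6 pair stood next to Ncaph2, with Smc5 at 6.84 and Smc6 at 5.15 CPM per kb. Then came Smc4 (3.82), Ncaph (2.51), Smc2 (2.48), Ncapd2 (2.04), Ncapd3 (1.66), Ncapg2 (0.478) and Ncapg (0.162), with overlap between Smc6 and Smc4 and between Ncaph and Smc2. Union lengths include every annotated isoform and reach 12.5 kb for Smc6 and 9.94 kb for Ncapg2, so levels per kb are lower bounds where the long exons are not used.

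Knockdown of Stag2 in proliferating cells gave no called change in any of the 10 genes. None of 10 passed the edgeR threshold with or without the replicate block, where 0.0242% of all tested genes did under either fit, and 0 of 10 had an unadjusted p under 0.05 under either, where 1.84% of all tested genes had one without the block and 5.2% with it. DESeq2 also called 0 of 10. The log2 fold changes ran from -0.24 for Smc6 to 0.01 for Ncaph, and 9 of 10 were below 0. The intervals were narrow for the steadier genes, from -0.37 to 0.29 for Ncaph2 and from -0.40 to 0.35 for Ncapd3, and wide for Ncapg, from -1.49 to 1.19. The hairpin groups overlapped in all 10 genes, whereas 5.31% of all tested genes had groups that did not.

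Within experiments, Smc6 differed by -0.21, -0.29 and -0.21 on the log2 scale in experiments 5, 7 and 9, and Smc5 by -0.19, -0.32 and -0.16. Both were thus lower with sh4 in each of the 3 experiments, as was Smc4 by -0.34, -0.28 and next to nothing. With the replicate block the unadjusted p was 0.0572 for Smc6, 0.122 for Smc5 and 0.103 for Smc4, and the edgeR adjusted p was 0.953 for each. The other 7 genes had differences of both signs. How many of all tested genes kept 1 sign over the 3 experiments was not counted. The agreement in Smc4, Smc5 and Smc6 thus has no background share beside it. Smc4 was at 69.2, 116 and 153 CPM with sh4 in experiments 5, 7 and 9, against 87.4, 141 and 153 CPM with shNT. Ncapg was at 19.8, 35.6 and 47.0 CPM with sh4, against 30.9, 41.4 and 41.3 CPM with shNT. In both hairpin groups of proliferating cells the experiment 5 library was the lowest for all 10 genes, while it was the lowest for 35.4% of all tested genes with shNT and 35.8% with sh4. The experiment 9 library was the highest for all 10 genes with sh4, against 34.8% of all tested genes.

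In quiescent cells, too, none of the 10 genes passed the threshold for the knockdown. The values ran in both directions: Ncapg and Ncapg2 had the largest positive log2 fold changes, and Smc5 and Smc6 were the only negative ones. None of 10 was called by edgeR, where 0.435% of all tested genes were, or with the replicate block, where 3.55% were. DESeq2 called 0 of 10, and unadjusted p-values under 0.05 numbered 1 in the fit without a block, 2 with the block and 2 by DESeq2. Over all tested genes the shares with such a p were 12% without the block, 20.4% with it and 13.2% by DESeq2, so these counts are near the background. Of the 10 genes, 1 had groups that did not overlap, Smc5, against 19.1% of all tested genes.

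Ncapg2 was at 3.80, 5.26 and 5.19 CPM in quiescent control cells and at 3.90, 12.2 and 8.5 CPM in quiescent knockdown cells of experiments 5, 7 and 9. The libraries of experiment 5 were alike and those of experiments 7 and 9 differed, for a log2 fold change of 0.78 (adjusted p = 0.417 by edgeR, SE 0.36, and 0.134 with the replicate block). It was 0.37 without the knockdown library of experiment 7. Ncapg was at 0, 1.04 and 2.39 CPM in control and at 1.04, 4.0 and 2.46 CPM in knockdown cells. Its interval ran from -0.58 to 2.73 around 1.07 (edgeR adjusted p = 0.647), and the difference was close to 0 in experiment 9. It rests on single libraries: the log2 fold change was 0.51 without the quiescent control library of experiment 5, which has the 0 counts, and 2.17 without that of experiment 9. Smc5 was at 48.9, 44.1 and 46.2 CPM in control and at 28.4, 43.8 and 36.7 CPM in knockdown cells. The 3 knockdown libraries lay below the 3 control ones, by next to nothing in experiment 7 and most in experiment 5, for a log2 fold change of -0.36 (adjusted p = 0.396 by edgeR, SE 0.16, and 0.152 with the replicate block). It was -0.21 without the knockdown library of experiment 5. Smc6, at 58.2, 75.0 and 60.0 CPM against 46.7, 69.2 and 53.0 CPM, was lower in each of the 3 experiments with a log2 fold change of -0.19 (interval -0.62 to 0.23).

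The size of the difference varied between experiments for several condensin subunits. Within experiment 7 the log2 difference of knockdown from control in quiescent cells was 0.69 for Ncapd2, 0.61 for Ncaph and 0.54 for Smc2, while it was -0.18, -0.06 and -0.32 in experiment 5 and -0.09, -0.18 and 0.08 in experiment 9. The quiescent knockdown library of experiment 7 was the highest of its group for 9 of the 10 genes, against 37.9% of all tested genes. Mki67 was at 5.49, 33.6 and 17.6 CPM in quiescent knockdown cells of experiments 5, 7 and 9, also highest in experiment 7, and its log2 fold change of 1.92 (SE 0.72) did not pass the edgeR threshold (adjusted p = 0.312). The part of cycling cells in these values was not tested.

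The interaction, the knockdown difference of quiescent cells minus the one of proliferating cells, was called for 0 of 10 genes and for 0% of all tested genes, with and without the replicate block. Unadjusted p-values under 0.05 numbered 0 without the block, 2 with it (Smc4 and Ncapg2) and 1 by DESeq2, which called 0. Over all tested genes the shares with such a p were 1.77% without the block, 4.76% with it and 2.04% by DESeq2. The interaction was largest for Ncapg at 1.22 (interval -0.91 to 3.36), but that value was 0.67 without the quiescent control library of experiment 5 and 2.32 without that of experiment 9. For Ncapg2 it was 0.98 without the block (interval -0.08 to 2.04, edgeR adjusted p = 0.9997). In that fit it was 0.58 without the quiescent knockdown library of experiment 7. With the block it was 0.96, and its interval of 0.23 to 1.69, which is not adjusted for the number of genes, left out 0 (edgeR adjusted p = 0.886). For Smc6 it was 0.04, with an interval from -0.55 to 0.64. The knockdown was not equally deep in the states: the log2 fold change of Stag2 was -2.26 in proliferating and -3.32 in quiescent cells. The interaction thus also compares unlike levels of Stag2, and the part of this was not tested.

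**Figure D5:**
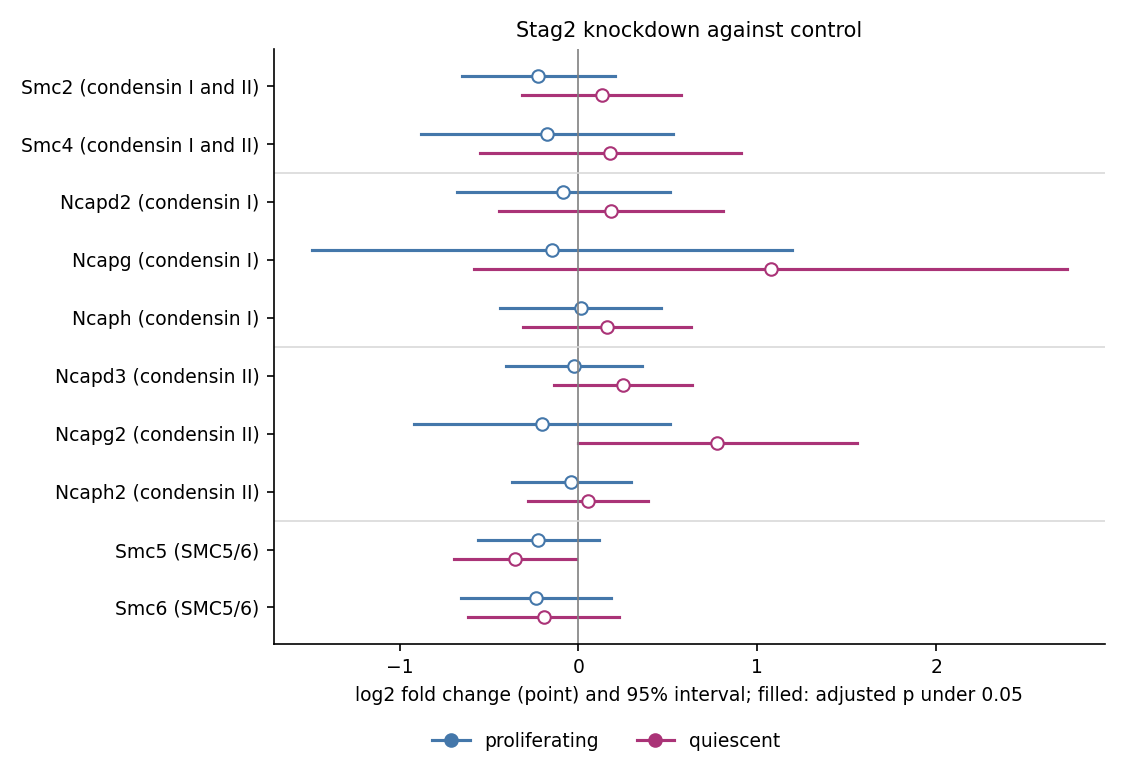
Log2 fold changes of Stag2 knockdown against control with 95% intervals from the edgeR fit, in proliferating (blue) and quiescent (purple) cells; open points did not pass an adjusted p of 0.05. No point is filled, and the intervals of Ncapg2 and Smc5 in quiescent cells reach 0 or lie next to it.

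The rest of the SMC5/6 complex and its recruiters were followed through a list of 7 genes, of which 6 were tested (Eid3 was not). In control cells 1 of 6 was called lower in quiescence and none higher, with a median log2 fold change of -0.32, and with the replicate block 3 were called lower. Over all tested genes 11.7% were called lower without the block and 18.5% with it, so 1 of 6 is near the background and 3 of 6 is above it. The gene called without the block was Slf1 (listed as Ankrd32), which brings SMC5/6 to DNA damage, at -1.04 (edgeR adjusted p = 0.00419). The values for the others ran from -0.17 for the SUMO ligase subunit Nsmce2 to -0.35 for Nsmce1, whose protein is a RING-type subunit. In knockdown cells 2 of 6 were called lower, Slf1 at -0.96 (edgeR adjusted p = 0.00688) and Nsmce2 at -0.50, and 4 with the block. The shares of all tested genes were 10.8% and 17.2%, so the count with the block was above its share here too. For the knockdown of Stag2, 0 of 6 passed the edgeR threshold in either state, where 0.0242% of all tested genes did in proliferating and 0.435% in quiescent cells. Unadjusted p-values under 0.05 numbered 0 in proliferating and 1 in quiescent cells, against 1.84% and 12% of all tested genes.

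Of 5 other genes with an SMC-type ATPase, 4 were tested (Smc1b was not), and 2 were called lower in quiescent control cells, where 11.7% of all tested genes were. The 2 called were the cohesin ATPases Smc1a at -0.56 (edgeR adjusted p = 0.0406) and Smc3 at -0.62 (edgeR adjusted p = 0.00436). Their size was near that of Smc5, Smc6 and Ncaph2. The values were -0.37 for the DNA repair ATPase Rad50, which passed with the replicate block, and -0.01 for Smchd1, which acts in X inactivation. The same 2 were called lower in knockdown cells, where 10.8% of all tested genes were. For the knockdown 0 of 4 were called in either state, with no unadjusted p under 0.05. Over all tested genes 1.84% had such a p in proliferating and 12% in quiescent cells, and 0.0242% and 0.435% were called.

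Of 19 regulators and partners of condensin on mitotic chromosomes, 16 were called lower in quiescence in control cells and 16 in knockdown cells, with medians of -4.37 and -3.27. Over all tested genes 11.7% and 10.8% were called lower. The largest falls in control cells were those of topoisomerase Top2a at -5.39, of Mki67 at -5.33 and of the chromokinesin Kif4 at -5.03, near that of Ncapg. Mcph1, which restrains condensin II, fell by 0.83 on the log2 scale. The 3 that did not pass were Top2b at -0.27, Akap8 at -0.07 and Ppp1r7 at 0.01. For the knockdown, 0 of 19 passed the edgeR threshold in either state, where 0.0242% of all tested genes did in proliferating and 0.435% in quiescent cells. In quiescent cells the median was 0.76 and 16 of 19 were above 0, with 2 unadjusted p-values under 0.05, and 10 with the replicate block. Over all tested genes the shares were 12% and 20.4%, so the first count is near the background and the second is above it. The share of all genes rose with the block as well. In the interaction 17 of 19 were above 0, and 0 of 19 were called, as were 0% of all tested genes. Its unadjusted p-values under 0.05 numbered 0 without the block and 9 with it. Over all tested genes those shares were 1.77% and 4.76%.

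The pattern over the 12 libraries was compared between genes by the root mean square distance between log2 CPM values, each gene centred on its own mean. Among the 10, Smc2 was nearest to Ncaph (0.156), Smc4 to Ncapd2 (0.284), and Ncapg2 to Ncapd2 (0.291). Smc5 and Smc6 were nearest to each other (0.156), and both Ncapd3 (0.261) and Ncaph2 (0.256) were nearer to Smc6 than to any condensin gene. Ncapg stood apart, at 1.25 from its nearest, Ncapg2. The distance grows with any difference in the size of the fall, and all values come from the same 12 libraries.

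Among the 10300 tested genes whose log2 CPM averaged 2 or more, the nearest to Smc2 were Ncaph, 4930422G04Rik (0.157) and Mms22l (0.187), a gene of replication fork repair, where the median distance of all genes was 1.16. The nearest to Ncapg were Kif4 (0.264), Mki67 (0.310) and Top2a (0.321), against a median of 2.70. The nearest to Ncapd3 were Ttll4 (0.126), the augmin subunit Haus1 (0.143) and the histone methyltransferase gene Whsc1 (0.144), against a median of 0.637. For Smc6 they were the importin Ipo7 (0.0753), the SUMO protease Senp1 (0.109) and Mtrr (0.110), against a median of 0.516.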

How the data were processed

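The values are unnormalized counts that the authors deposited in 1 table of 12 libraries, by gene symbol. The libraries were made with a stranded kit from polyadenylated RNA, per the labels' protocols. The submitters' processing notes name Bowtie, TopHat, HTSeq, DESeq2 and the build mm10, while their roles, the annotation and the strand setting are not given in the sources used here.

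Tests were run with edgeR 4.0.16 under R 4.3.3. The filter was filterByExpr (minimum count 10) and the scaling TMM. A model of 4 group means over the 12 libraries was fitted by glmQLFit, and contrasts were tested by glmQLFTest. Benjamini-Hochberg adjustment covered the 12406 tested symbols, with a threshold of 0.05. SE is the absolute log2 fold change divided by the square root of the F statistic, and intervals are at 95%. Library totals of 14524429 to 21987539 counts set the counting error, and PCR copies of a molecule can be counted more than once, so the limit that a count of 0 allows covers counting error only.

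The experiment number in the labels coincides with their batch and is shared by 1 library of each group, so it pairs libraries. Deviations from group means correlated at 0.526 on average over 18 same-experiment pairs of libraries (0.225 to 0.789). Over 36 pairs from different experiments and groups the average was -0.26. Deviations within a group cancel by construction, so this negative value follows from the positive one and adds nothing to it. No 2 replicates held identical values. Alternatives were the replicate block (experiment as an added term), median-of-ratios size factors, library totals only, the DESeq2 1.42.0 Wald test, no filter, a mean count of at least 50, only the libraries of a contrast, and leaving out each library or experiment. Ratios were also computed with 1 added to each count and without pairing, and tested with both pairs of an experiment swapped together. The scripts were tested on simulated data.

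Genes were named by this rule: the 10 genes, Stag2, Mki67, up to 6 per list with the largest and smallest change in control quiescence, and the 3 nearest in pattern to each of Smc2, Ncapg, Ncapd3 and Smc6. Named outside this rule were Mcph1, cell type markers, the untested Eid3 and Smc1b, the opposite-strand genes Sco2, Tymp and Lcorl, and the same-strand genes Scarna10 and Gm28967. The genes and lists were chosen with earlier results of these data known. Older symbols of Slf1 (Ankrd32), Slf2 (Fam178a) and Nsmce3 (Ndnl2) were used where the table has them. Gene positions are from GENCODE M21 and promoters from RefSeq, both on GRCm38, the assembly of mm10. 1 listed gene is not reported here by name.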

Additional observations from a re-analysis of the deposited data

How the results depend on the processing

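No called result of the 10 genes or the 4 ratios changed direction under the alternatives run. Of the 10 genes, 10 were called lower in quiescence with the replicate block in control cells and 10 in knockdown cells, and with the block 0 were called for the knockdown in proliferating cells, in quiescent cells or for the interaction, so the block changed no call of these genes. Leaving out single libraries gave 8 to 10 calls in control quiescence and 8 to 10 in knockdown quiescence, the lost calls being those of Ncaph2 and Smc6. Without experiment 7 the counts were 6 in control and 6 in knockdown cells, and without experiment 9 the count in knockdown cells was 5. These fits have fewer libraries, and all tested genes called lower in control cells fell from 1448 to 407 without experiment 7. Of single libraries, that number was lowest without the quiescent control library of experiment 5, at 884, and it was 908 without the proliferating control library of experiment 7; in knockdown cells it went from 1338 to 730 without the quiescent library of experiment 9, 822 without that of experiment 5 and 861 without the proliferating library of experiment 7. All tested genes called for the knockdown in quiescent cells went from 54 to 440 with the replicate block and to 5 without the quiescent knockdown library of experiment 9, and lay from 12 to 16 without the quiescent knockdown library of experiment 5 or any 1 quiescent control library. Ratio differences kept their sign and threshold with 1 added to each count and, by an exact permutation test of 6 against 6 libraries, with no replicate block. With both pairs of an experiment swapped together, an alternative chosen after seeing the data, the adjusted p was 0.25 for all 4, the smallest that 3 experiments allow, for the same differences of -1.76 (Ncapd2 over Ncapd3), -2.0 (Ncapg over Ncapg2), -1.64 (Ncaph over Ncaph2) and -1.43 (Smc2 over Smc5). A fit of the interaction to only its own libraries is the main one. Depth limits Ncapg in quiescent cells, where it had 0 to 67 counts.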
